A study of Arabidopsis thaliana with 26 samples.

Results

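The 90 genes described here had a ratio of high light to growth light within set limits over the first 12 h. They were lower in high light at 24, 48 and 72 h. After a return to growth light they were again within a set limit of their growth light level. They were chosen from the 33602 genes listed in the count files by these same values. For each gene the counts were divided by the library total to give CPM (counts scaled to a common library total), the 2 libraries of a group were averaged, and the log2 ratio of high light to growth light was taken after adding 1 CPM to each mean. A gene was a member when this ratio was within 0.5 of 0 at 0.5, 6 and 12 h and at or below -0.8 at 24, 48 and 72 h, and when the log2 ratio of recovery to growth light at 72 h, formed the same way, was within 0.7 of 0. The ratios of high light to growth light and of recovery to growth light are therefore a description of how the genes were picked. Calls on these ratios are given below only beside the share of all genes called, and nothing is read from them.

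The libraries came from whole seedlings of Arabidopsis thaliana, accession Col-0, raised at 22 °C under unbroken light for 7 days, at a growth intensity of 60 µmol per m2 and second. The recovery group spent 72 h at the high intensity of 1200 µmol per m2 and second and then 14 h in growth light. The high light groups (HL) were taken after 0.5, 6, 12, 24, 48 and 72 h at 1200 µmol, where the leaf temperature is given as 22 °C, and the growth light groups (GL) were kept at 60 µmol and taken at the same 6 times. The growth light control nearest to recovery is the one at 72 h, so recovery seedlings were 14 h older than that control. Each of the 13 groups has 2 libraries, each made from 25 pooled plants, and the total counts of the 26 libraries ran from 13637677 to 29697279. Nothing in the labels tells separate cultures from repeats of 1 culture, so each p-value covers the spread between these samples alone, and that spread may be technical.

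Some of the 90 genes are known from root hairs or the endodermis. Root hairs are outgrowths of single epidermal cells that extend at the tip, which takes wall-loosening proteins, calcium pumps, actin regulators and secretion, and their genes are switched on by a small group of bHLH transcription factors. Further inside the root, the endodermis seals its walls with the Casparian strip, a lignin band laid down by CASP membrane proteins, peroxidases and dirigent proteins. Leaves in strong light commonly cut back their light-harvesting antennae and raise their protection against reactive oxygen.

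Over the 90 genes the median log2 ratio of HL to GL was -0.24 at 0.5 h, -0.01 at 6 h, -0.25 at 12 h, -1.12 at 24 h, -1.07 at 48 h and -1.26 at 72 h. Within the early limits the ratio was below 0 in 79 genes at 0.5 h, 48 at 6 h and 78 at 12 h. Over all genes with at least 1 CPM in a group the median ratio was 0.04 at 24 h, 0.12 at 48 h and 0.09 at 72 h. The ratio was lowest at 24 h for 22 of the genes, at 48 h for 13 and at 72 h for 55. Both HL libraries lay below both GL libraries in all 90 genes at 24, 48 and 72 h. The same was true of 40 genes at 0.5 h, 14 at 6 h and 37 at 12 h. The share of all genes without such overlap is not given here, so nothing is read from these counts. A call by edgeR's test, described with its counts further on, is a different measure. That test called 8.29%, 18.2% and 21.1% of all tested genes lower at the 3 early times. At the late times it called 23.9%, 23% and 22.3% lower. Levels in growth light were modest: the mean over 24, 48 and 72 h ran from 1.08 to 360 CPM with a median of 5.94 CPM, and 48 genes reached 5 CPM. In whole seedlings, fewer cells of a type and less RNA per cell cannot be told apart.

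**Figure D1:**
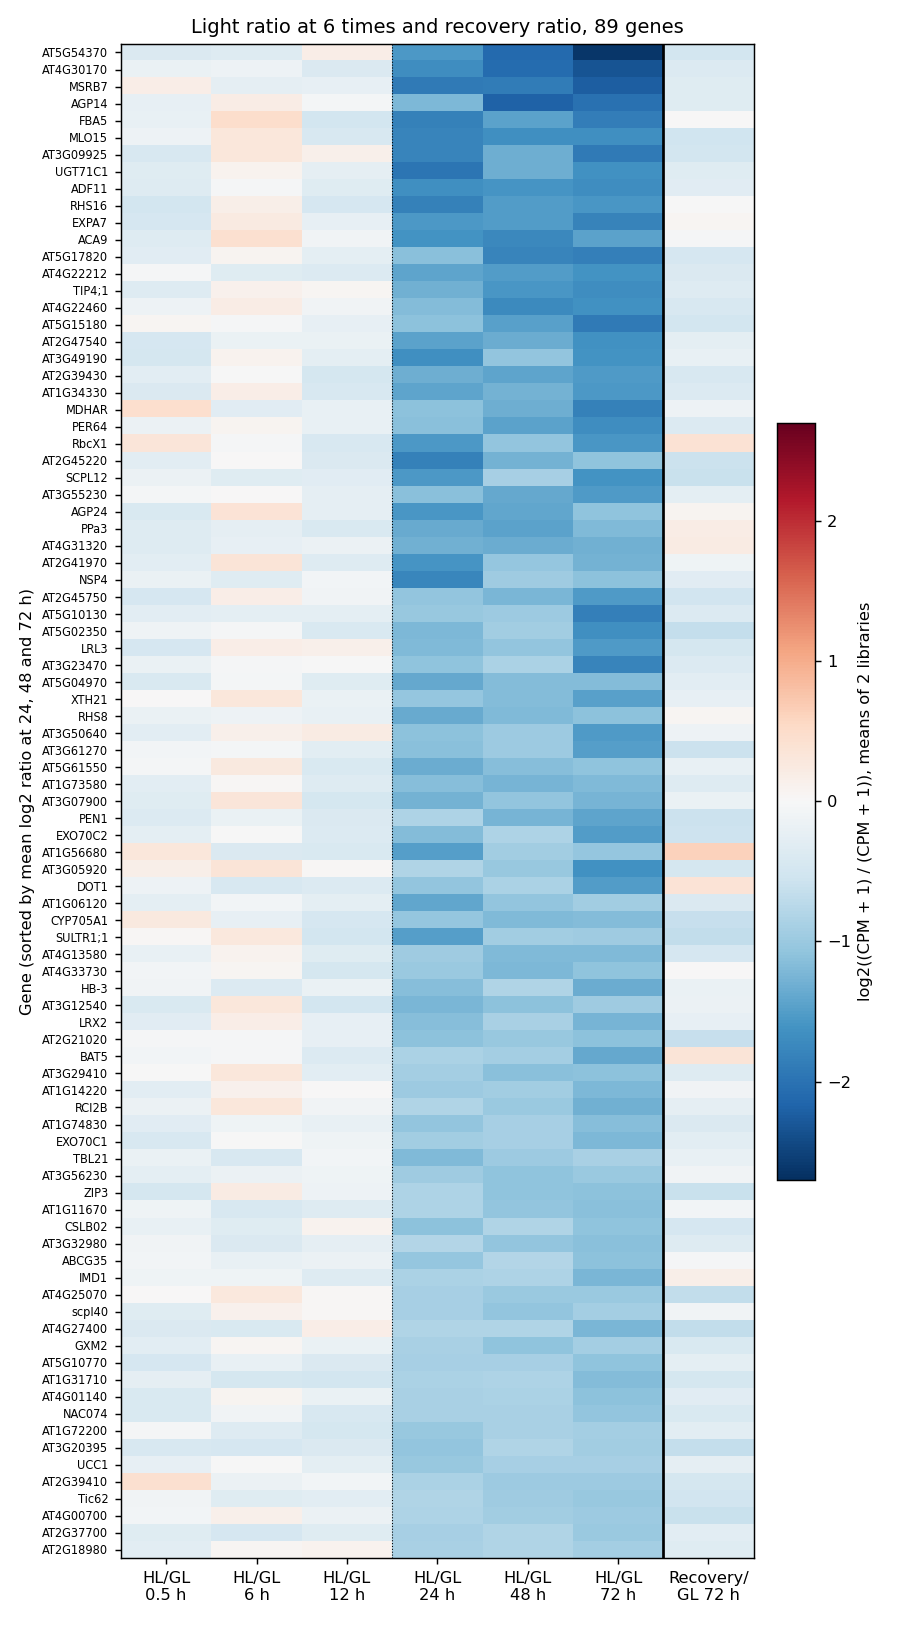
Log2 ratio of mean CPM + 1 for 89 of the 90 genes (rows, sorted by their mean ratio at 24, 48 and 72 h). The first 6 columns are HL over GL at each time and the last is recovery over GL at 72 h. Blue marks lower and red higher in the first-named group. The 3 early columns and the recovery column are pale, as the choice of genes fixes, and the median at 72 h over the 90 genes is -1.26.

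Among 21449 genes tested with edgeR's quasi-likelihood test (adjusted p below 0.05, Benjamini-Hochberg over all tested genes), all 90 were called lower in HL at each late time. The same call was made for 23.9% of all tested genes at 24 h, 23% at 48 h and 22.3% at 72 h. At the early times the members called lower were 1 at 0.5 h (8.29% of all tested genes), 5 at 6 h (18.2%) and 19 at 12 h (21.1%), and 1 member was called higher at 6 h (22.9%). These counts follow from the choice of genes, and the early ones moved with single libraries. The 1 at 0.5 h, the aspartyl protease gene AT5G10770, became 12 without GL replicate 1 and 3 without HL replicate 1, and the call was lost without replicate 2 of either light. The 5 lower at 6 h became 2 without GL replicate 1, 10 without GL replicate 2 and 3 without HL replicate 1, and the 1 higher, which was FBA5, became 5 members without GL replicate 1. The 19 at 12 h became 7 without GL replicate 1, 8 without HL replicate 1 and 12 with DESeq2. Without the 1 CPM added to each mean, the fitted log2 fold changes had medians of -1.70, -1.73 and -1.99 at 24, 48 and 72 h. At 0.5, 6 and 12 h the fitted medians were -0.29, -0.02 and -0.30, and the lowest members were at -1.94, -0.93 and -1.30. The added CPM shrinks the ratio of genes with few counts, so some of these met the early limits with a larger fitted fall.

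ADF11, RHS16, EXPA7 and ACA9 are members known from root hairs or tip growth, and they were grouped here after their values were seen. EXPA7 (AT1G12560, chromosome 1), an expansin that loosens the root hair wall, had 0.513 and 1.34 CPM in HL at 72 h, against 6.65 and 4.71 CPM in GL. At 24 h it had 2.01 and 2.77 CPM in HL and 8.62 and 9.20 CPM in GL, whereas at 6 h the HL values of 5.36 and 4.46 CPM overlapped the GL values of 4.59 and 3.33 CPM. Recovery libraries had 5.29 and 6.5 CPM, inside the range of the GL libraries at 72 h. The 2 light conditions overlapped at 6 and 12 h and were apart from 24 h on, while at 0.5 h the HL libraries, at 3.44 and 3.52 CPM, were below the GL libraries, at 4.51 and 5.69 CPM.

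ADF11 (AT1G01750), an actin depolymerizing factor of the root hair group, had 1.83 and 2.86 CPM in HL at 72 h, against 10.4 and 8.93 CPM in GL, and 7.38 and 7.95 CPM in recovery. RHS16 (AT4G29180), a receptor-like kinase named for its root hair expression, had 0.733 and 0.758 CPM in HL and 4.59 and 3.72 CPM in GL at 72 h. ACA9 (AT3G21180), a plasma membrane calcium pump best known from pollen, had 0.440 and 0.524 CPM in HL and 2.82 and 3.22 CPM in GL at 72 h. In each of these 3 genes every HL library was below every GL library at the same late time. ACA9 was the member with the second highest ratio at 6 h, 0.43, with 3.74 and 3.79 CPM in HL above 2.36 and 2.73 CPM in GL, so its order in the 2 lights was turned round between 6 and 24 h.

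Further genes of tip growth belong to the set. LRX2 (AT1G62440), an extensin with leucine-rich repeats in the root hair wall, had 1.69 and 2.1 CPM in HL and 6.3 and 5.58 CPM in GL at 72 h. RHS8 (AT1G63450), which adds galacturonic acid to root hair xyloglucan, had 0.440 and 0.291 CPM in HL and 2.24 and 1.61 CPM in GL. LRL3 (AT5G58010), a bHLH transcription factor of root hair growth and 1 of 3 transcription factors named here, had 0.660 and 0.874 CPM in HL and 4.18 and 4.03 CPM in GL. Chosen after their values were seen, the receptor-like cytoplasmic kinase gene AT2G41970 had 0.513 and 0.583 CPM in HL and 3.0 and 2.54 CPM in GL at 72 h, and the exocyst genes EXO70C1 and EXO70C2 stood at 20.6% and 21.4% of their GL mean. The groups did not overlap in any of these genes at 72 h.

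Few genes of the wider root hair list are members. Of 23 listed root hair and trichoblast genes, 3 (EXPA7, LRX2 and RHS8) are members. Of the 20 others, 18 fell in HL at 24 h, 18 at 48 h and 17 at 72 h, with median log2 fold changes of -2.19, -2.37 and -2.38 beside medians of all tested genes of 0.03, 0.02 and 0.01. Of these 20, 13 met the late condition and were left out because an early ratio was outside the limits: 11 of the 20 fell already at 0.5 h and 12 at 12 h. The largest falls at 72 h were in MRH6, with 0.190 CPM in HL and 2.59 CPM in GL (means of 2 libraries), LRX1, with 1.51 and 15.3 CPM, and PRP3, with 2.74 and 25.2 CPM in HL and GL. Their log2 fold changes were -3.78 ± 0.55, -3.38 ± 0.43 and -3.24 ± 0.33 (SE, n = 2 libraries per group, edgeR adjusted p = 7.1e-06, 1.36e-06 and 4.99e-08). Most of the other root hair genes were thus low at the late times too, and the early limits kept 13 of them out of the set.

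Because root hair genes share a promoter sequence known as the root hair element, the 250 bases before each gene start were searched for it on both strands, a search chosen after the members had been seen. It was found in 4 of 90 member promoters (4.44%) and in 161 of 21317 promoters of tested genes (0.755%). In the root hair list 8 of 23 promoters held it, and 7 of 20 with the members left out (EXPA18, RHS13, G3Pp2, RHS18, LRX1, PRP3 and MRH6). The 4 member promoters are shown since they carry this match. They are from RefSeq (build TAIR10.1), written 5′ to 3′ along the gene's strand and ending 1 base before the gene start, with the match in capitals: EXPA7 at chr1:4276255-4276504 on the + strand, AT3G09925 at chr3:3052851-3053100 on the - strand, AT3G12540 at chr3:3974552-3974801 on the + strand, and PPa3 at chr2:19253420-19253669 on the + strand.
EXPA7: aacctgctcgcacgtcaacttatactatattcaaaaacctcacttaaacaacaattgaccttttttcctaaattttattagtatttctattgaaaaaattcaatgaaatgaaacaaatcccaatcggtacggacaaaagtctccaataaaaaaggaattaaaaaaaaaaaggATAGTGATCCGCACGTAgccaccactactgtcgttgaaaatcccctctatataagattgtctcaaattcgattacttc
AT3G09925: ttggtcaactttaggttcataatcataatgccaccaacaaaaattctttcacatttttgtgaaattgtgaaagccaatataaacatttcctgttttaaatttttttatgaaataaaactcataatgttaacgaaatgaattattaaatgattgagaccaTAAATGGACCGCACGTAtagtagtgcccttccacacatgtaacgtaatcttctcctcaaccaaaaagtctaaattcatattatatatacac
AT3G12540: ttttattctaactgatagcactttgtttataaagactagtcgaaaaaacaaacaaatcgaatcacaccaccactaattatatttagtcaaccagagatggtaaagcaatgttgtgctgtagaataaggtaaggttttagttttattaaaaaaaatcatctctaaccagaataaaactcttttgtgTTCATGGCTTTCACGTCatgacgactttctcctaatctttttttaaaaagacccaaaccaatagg
PPa3: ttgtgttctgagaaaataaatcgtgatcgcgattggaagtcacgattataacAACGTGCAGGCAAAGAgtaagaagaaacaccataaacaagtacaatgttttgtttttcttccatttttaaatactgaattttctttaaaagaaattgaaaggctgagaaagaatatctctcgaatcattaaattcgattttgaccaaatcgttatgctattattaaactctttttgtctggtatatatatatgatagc
The match lay 78 to 62 bases before the start in EXPA7, 91 to 75 in AT3G09925 and 65 to 49 in AT3G12540, on the gene's strand in each. In PPa3 it lay 198 to 183 bases before the start on the opposite strand. A match is only a run of letters in this window and says nothing of whether a factor binds there.

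The genes behind these promoters were lower in HL than in GL at 72 h, as the rule fixes. AT3G09925, a secreted protein of the Ole e 1 and extensin family, had 1.54 and 1.63 CPM in HL and 8.0 and 9.42 CPM in GL at 72 h. PPa3 (AT2G46860), a soluble inorganic pyrophosphatase, had 0.147 and 0.408 CPM in HL and 2.06 and 1.8 CPM in GL. AT3G12540, annotated as a leucine-zipper protein of unknown function, had 0.293 and 0.408 CPM in HL and 1.65 and 1.61 CPM in GL. In recovery PPa3 had 2.35 and 2.37 CPM, above its GL libraries at 72 h, and AT3G12540 had 1.5 and 1.21 CPM, below its own. Already at 12 h the fitted log2 fold changes of HL to GL were -0.92 in AT3G12540 and -0.83 in PPa3. Both were called lower at that time, as were 21.1% of all tested genes. EXPA7 at -0.27 and AT3G09925 at 0.16 were not called at 12 h.

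**Figure D2:**
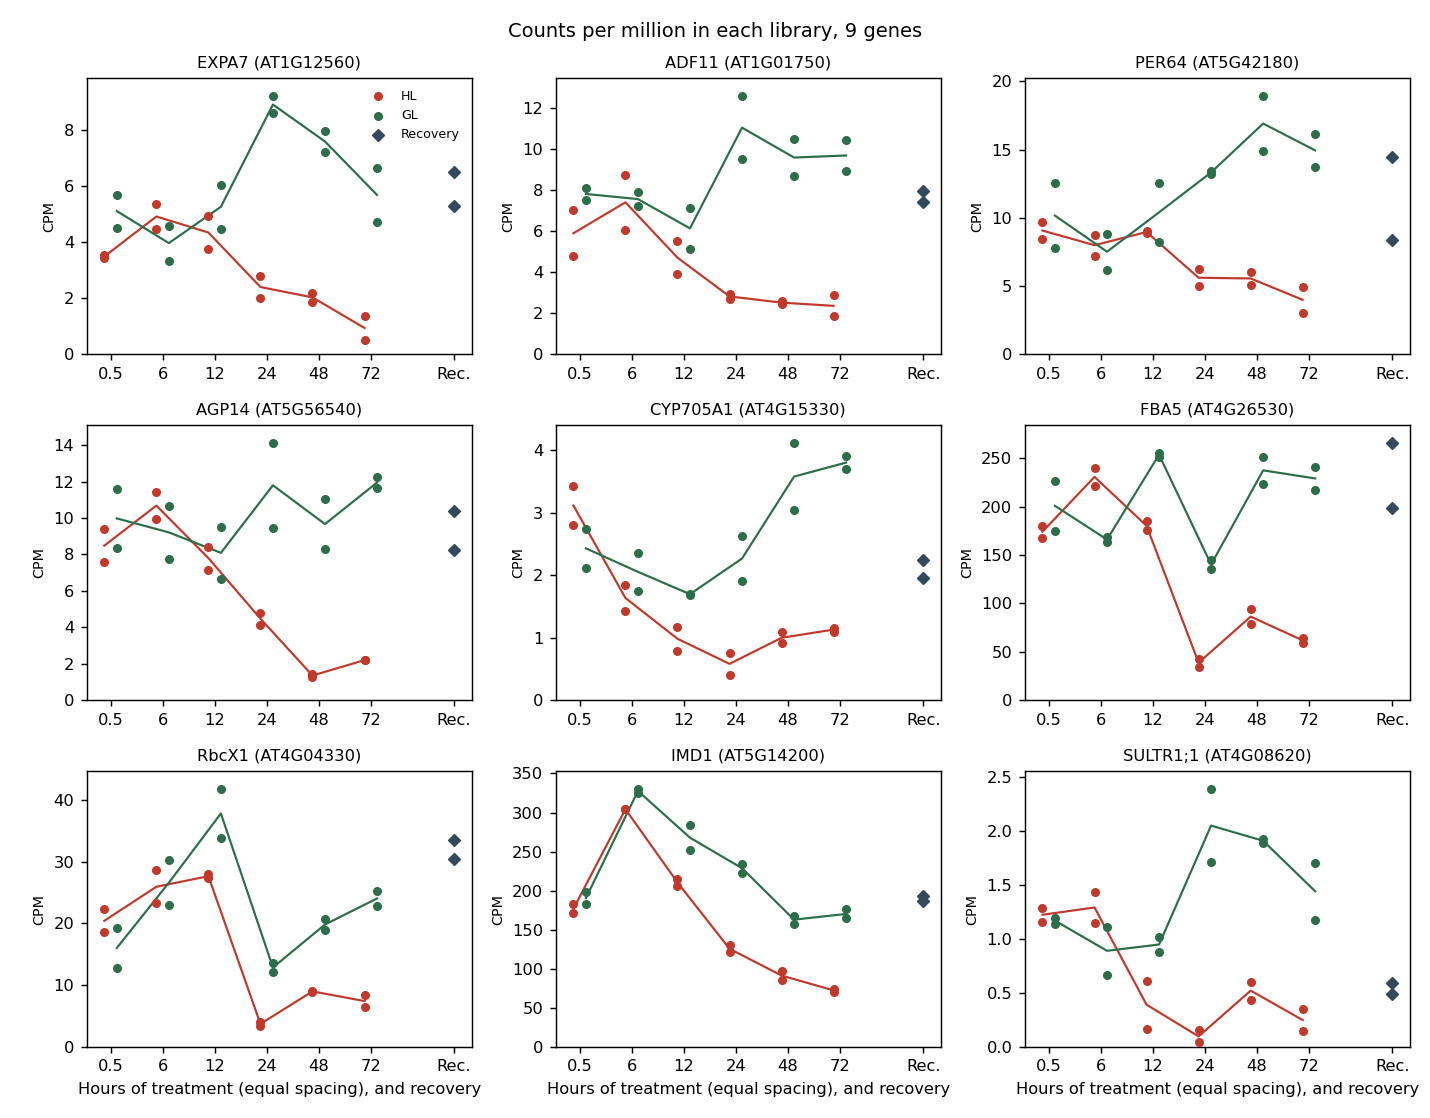
CPM in each library for 9 of the genes (HL red, GL green, recovery diamonds, lines through group means) at 0.5 to 72 h, drawn at equal spacing. EXPA7, ADF11 and PER64 stand for root genes, AGP14 for the cell surface and CYP705A1 for triterpene metabolism. FBA5 stands for carbon metabolism, RbcX1 for Rubisco assembly, IMD1 for amino acid and glucosinolate synthesis and SULTR1;1 for sulfate uptake. At 72 h FBA5 had 64.2 and 59.6 CPM in HL and 241 and 217 CPM in GL.

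The endodermis and its Casparian strip gave a second group of root genes. PER64 (AT5G42180), the peroxidase that polymerises lignin in the strip, had 4.91 and 3.03 CPM in HL and 16.2 and 13.7 CPM in GL at 72 h, and 8.36 and 14.5 CPM in recovery. Its HL and GL libraries did not overlap from 24 h on, and of the recovery libraries only replicate 2 was within the GL range. Of 21 listed endodermis and suberin genes, 12 fell in HL at 24 h, 14 at 48 h and 11 at 72 h. With members left out the numbers were 10, 12 and 9 of 19 and the medians -0.36, -0.41 and -0.31. CASP1 and CASP2 fell by 2.23 and 2.5 on the log2 scale at 72 h (SE 0.28 and 0.26, n = 2 libraries per group, edgeR adjusted p = 9.61e-07 and 8.02e-08), but their ratios at 12 h, -0.75 and -0.61, kept them out of the set. CASP5, with 2 counts in HL against 20 in GL at 72 h, had a ratio of 0.108 (95% exact interval 0.0122 to 0.443, counting error only). The suberin genes GPAT5, RWP1 and KCS2, named after their values were seen, had log2 fold changes of 0.26, -0.03 and 0.02 at 72 h, none past the test, and adjusted p-values of 0.329, 0.846 and 0.926 in the same fit.

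Class III peroxidases, secreted enzymes that use hydrogen peroxide on wall components, gave 6 of the 90 genes. AT3G32980 had the highest growth light level of all members per kilobase of exon, 234 CPM per kb, ahead of Tic62 at 115 and IMD1 at 110 CPM per kb. It had 147 and 133 CPM in HL at 72 h, against 306 and 306 CPM in GL, and 217 and 264 CPM in recovery. AT4G30170 had 13 and 16.1 CPM in HL and 76.7 and 77.0 CPM in GL at 72 h, the second lowest mean late ratio of the set. AT5G17820 had 14.2 and 16.3 CPM in HL and 58.4 and 56.9 CPM in GL. The family was mixed as a whole: of 56 tested peroxidase genes, members included, 27 fell and 15 rose in HL at 24 h. At 72 h 26 fell and 10 rose. The falls of the 6 members in these counts were fixed by the rule. Reads from close peroxidase copies can be assigned to either copy, so single peroxidase values are less certain than others.

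Other wall and secreted proteins ran along. AT5G54370, a protein annotated as late embryogenesis abundant-like, had the lowest mean late ratio, with 1.17 and 3.44 CPM in HL and 17.8 and 21.1 CPM in GL at 72 h. AGP14 (AT5G56540), an arabinogalactan peptide of the cell surface, had 2.2 and 2.21 CPM in HL and 12.2 and 11.7 CPM in GL. Both genes had all HL libraries below all GL libraries from 24 h on. AT5G04970, annotated in the invertase and pectin methylesterase inhibitor family, had 0.587 and 0.524 CPM in HL and 2.59 and 2.42 CPM in GL at 72 h. Of the list of primary wall genes, to which AGP14 belongs, 21 of 35 other genes fell at 72 h with a median of -0.26, and FLA9, FLA2 and FLA8, arabinogalactan proteins with fasciclin domains, had the largest falls there, -2.16, -1.57 and -1.22 on the log2 scale. Dirigent proteins, which steer lignin and lignan coupling, gave 3 members, and 12 of 20 tested dirigent genes, members included, fell at 72 h.

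Uptake and transport genes were a further group. TIP4;1 (AT2G25810), an aquaporin of the vacuole membrane, had 4.11 and 3.79 CPM in HL and 14.7 and 14.8 CPM in GL at 72 h, and 13 of 23 other tested aquaporin genes fell while 2 rose. ZIP3 (AT2G32270), a zinc transporter, had 1.32 and 1.63 CPM in HL and 4.71 and 3.91 CPM in GL at 72 h, and its recovery values of 2.09 and 2.91 CPM were below both GL libraries. SULTR1;1 (AT4G08620), a high-affinity sulfate transporter of the root surface, had 0.147 and 0.350 CPM in HL and 1.71 and 1.18 CPM in GL at 72 h. In recovery it had 0.588 and 0.486 CPM, which makes it 1 of the members furthest from restored. The rest of the sulfur list went the other way: 9 of 13 other tested genes rose at 72 h and 3 fell, and LSU1, a marker of low sulfur, had 90.3 CPM in HL and 7.42 CPM in GL. ABCG35 (AT1G15210), a plasma membrane ABC transporter, had 25.9 and 28.5 CPM in HL and 61.2 and 59.1 CPM in GL at 72 h, with 58.1 and 59.6 CPM in recovery.

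Specialised metabolism was represented by aliphatic glucosinolates and a root triterpene. IMD1 (AT5G14200), an isopropylmalate dehydrogenase of leucine synthesis and methionine chain elongation, had 69.8 and 74.6 CPM in HL and 176 and 164 CPM in GL at 72 h. BAT5 (AT4G12030), the chloroplast carrier for the keto acids of that pathway, had 16.4 and 17.2 CPM in HL and 46.8 and 44.1 CPM in GL. Recovery libraries had 193 and 186 CPM of IMD1 and 61.5 and 54.9 CPM of BAT5, all above the GL libraries. The other genes of the pathway fell as a group: 12 of 12 tested genes besides BAT5 at 24 h, 11 at 48 h and 12 at 72 h, with medians of -0.96, -0.81 and -1.06, and 9 fell already at 12 h. The side-chain enzyme AOP2 had 3.05 CPM in HL and 21.2 CPM in GL at 72 h, CYP79F1, which turns elongated methionine into an aldoxime, 30.9 and 130 CPM in HL and GL, and the regulator MYB76 0.190 and 1.51 CPM. NSP4 (AT3G16410), which directs glucosinolate breakdown to nitriles, had 7.48 and 8.86 CPM in HL and 18.7 and 19 CPM in GL at 72 h.

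CYP705A1 (AT4G15330) and PEN1 (AT4G15340) are neighbours on chromosome 4 with no listed gene between them. PEN1 makes the triterpene arabidiol and CYP705A1 cleaves it in roots. CYP705A1 had 1.1 and 1.17 CPM in HL and 3.71 and 3.91 CPM in GL at 72 h, and 1.96 and 2.25 CPM in recovery. PEN1 had 1.83 and 1.57 CPM in HL and 5.83 and 6.70 CPM in GL, and 3.53 and 4.25 CPM in recovery. In both genes the recovery libraries lay above the HL and below the GL libraries. The list of other root markers holds no member. Its genes with the largest changes at 72 h, CYP705A5 of the thalianol cluster and MRN1 and CYP71A16 of the marneral cluster, fell by 2.43, 3.72 and 3.34 on the log2 scale, but their ratios at 6 h, 1.82, 0.91 and 0.90, were above the early limit.

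A small set of members belongs to the chloroplast or to carbon and redox metabolism. FBA5 (AT4G26530), a fructose-bisphosphate aldolase, had 34.6 and 43.1 CPM in HL at 24 h, against 135 and 145 CPM in GL, and 64.2 and 59.6 CPM in HL at 72 h, against 241 and 217 CPM in GL. RbcX1 (AT4G04330), a chaperone for Rubisco assembly, had 3.45 and 3.98 CPM in HL and 13.6 and 12.1 CPM in GL at 24 h. Both genes also had a lower level in GL at 24 h than in GL at 12 h, where FBA5 had 256 and 252 CPM and RbcX1 33.9 and 41.8 CPM, so the level at 24 h was below that at 12 h in both lights. Tic62 (AT3G18890), which tethers ferredoxin-NADP reductase in the chloroplast, had 141 and 157 CPM in HL and 307 and 300 CPM in GL at 72 h. Its recovery libraries, at 207 and 215 CPM, lay above the HL and below the GL libraries. MDHAR (AT3G09940), a monodehydroascorbate reductase that regenerates ascorbate, had 3.67 and 5.36 CPM in HL and 17.5 and 19.7 CPM in GL, whereas 17 of 28 other tested antioxidant genes rose and 7 fell at 72 h. MSRB7 (AT4G21830), a methionine sulfoxide reductase chosen after its values were seen, had 0.513 and 0.583 CPM in HL and 5.83 and 6.70 CPM in GL at 72 h. FBA5 overlaps FBA7 on the same strand in the annotation, while RbcX1, EXPA7, ADF11, ACA9, PER64 and IMD1 each overlap a gene on the opposite strand. The strand setting of the counting is not given in the sources used here, so reads of these pairs may be mixed.

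The remaining named members have mixed roles. DOT1 (AT2G36120), a glycine-rich protein, had 38.9 and 37.3 CPM in HL and 105 and 115 CPM in GL at 72 h, and 133 and 150 CPM in recovery, above both GL libraries. UGT71C1 (AT2G29750), a UDP-glucosyl transferase, had 3.89 and 3.44 CPM in HL and 14.1 and 13 CPM in GL at 72 h. HB-3 (AT5G15150), a homeobox factor, had 1.91 and 1.52 CPM in HL and 6.53 and 5.21 CPM in GL, and the NAC factor NAC074 (AT4G28530) had 0.293 and 0.233 CPM in HL and 2.18 and 1.12 CPM in GL. These genes had no overlap between HL and GL at 72 h.

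For the members, the opening of the gap between 12 and 24 h had components in both lights. Within HL the fitted log2 fold change of 24 h against 12 h was below 0 in all 90 genes, with a median of -0.88, and within GL it was above 0 in 83 genes, with a median of 0.49. The lower level in HL was the larger component in 70 genes and the higher level in GL in 20, among them ADF11 and LRX2. ADF11 had 2.92 and 2.69 CPM in HL at 24 h and 3.87 and 5.51 CPM in HL at 12 h, with 12.6 and 9.51 CPM in GL at 24 h and 7.11 and 5.13 CPM in GL at 12 h. PEN1 was nearly flat in HL over this step, -0.06, and 0.53 higher in GL. The rule fixes the difference of these components, so they are given without a test, and the seedlings in GL also differ by 12 h of age across this step. The same step over all tested genes is not given here, so how far these changes are shared by other genes cannot be told.

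**Figure D3:**
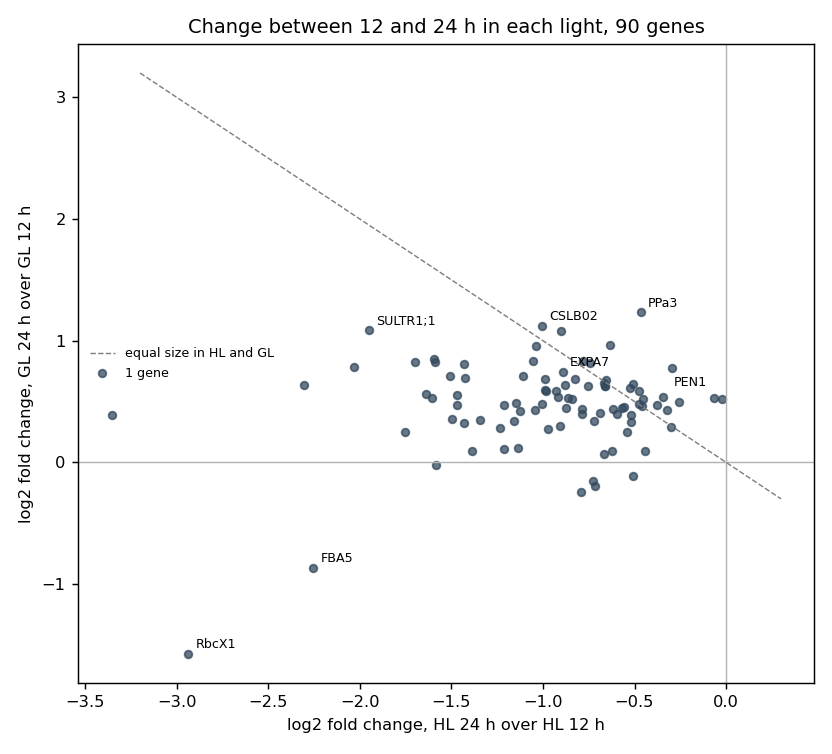
Fitted log2 fold change of 24 h over 12 h in HL (horizontal) and in GL (vertical), 1 point per gene. On the dashed line the change down in HL and the change up in GL are of equal size. The HL component was the larger in 70 of 90 genes. FBA5 and RbcX1 lie at negative values on both axes, as do Tic62, BAT5, IMD1, AT1G31710 and AT4G01140, which are closer to the horizontal axis.

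Whether the late levels were steady was asked by comparing 72 h with 24 h within each light, a contrast that the rule did not form, although it used the same libraries. In GL 3 members rose (8.32% of all tested genes did) and 9 fell (9.39%), and the median log2 fold change over members was -0.20 against 0.0046 over all tested genes. In HL 4 members rose (20.2% of all tested genes) and 26 fell (23.1%), with a median of -0.59 over members and -0.0013 over all. In both lights a smaller share of members than of all genes was called in either direction, 12 of 90 against 17.7% in GL and 30 of 90 against 43.3% in HL. That came from the rises alone. The falls were not a smaller share, at 9 of 90 against 9.39% in GL and 26 of 90 against 23.1% in HL. The pooled share therefore does not show that the members were steadier. The 26 falls in HL became 11 without HL replicate 1 at 72 h, 13 without HL replicate 2 at 24 h, 18 without HL replicate 2 at 72 h and 33 without HL replicate 1 at 24 h. The 4 rises in HL became 2 without HL replicate 2 at 72 h, and the 3 rises in GL became 5 without GL replicate 1 at 24 h. The 9 falls in GL became 4 without GL replicate 1 at 24 h, 4 without GL replicate 2 at 24 h, 3 without GL replicate 1 at 72 h, 2 without GL replicate 2 at 72 h, 16 with no filter on low counts and 20 when only the 4 libraries were fitted. There were 10 genes called in both lights, all with the same sign, and since the rule holds the ratio of the lights within bounds at both times, the changes in the lights are tied to each other.

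The lowest adjusted p-values between 24 and 72 h belonged to IMD1 and BAT5 of glucosinolate synthesis and to 1 peroxidase. IMD1 fell within HL by 0.92 on the log2 scale (SE 0.09, n = 2 libraries per group, edgeR adjusted p = 2.85e-08), to 69.8 and 74.6 CPM in HL at 72 h, against 121 and 130 CPM in HL at 24 h. BAT5 fell within HL by 1.04 (SE 0.10, n = 2 per group, edgeR adjusted p = 2.88e-08), and AT5G17820 by 1.39 (SE 0.20, n = 2 per group, edgeR adjusted p = 8.93e-06). Their calls held in 11 of 11 alternatives each. Within GL, IMD1 fell by 0.49 (SE 0.08, n = 2 per group, edgeR adjusted p = 0.00039), with 176 and 164 CPM at 72 h and 223 and 234 CPM at 24 h, and this held in 11 of 11 alternatives as well.

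Genes that rose within a light were few. RbcX1 rose within GL by 0.85 (SE 0.17, n = 2 per group, edgeR adjusted p = 0.00171) and FBA5 by 0.65 (SE 0.14, edgeR adjusted p = 0.0029), each in 11 of 11 alternatives. Within HL the rise of RbcX1 was 0.89 (SE 0.24, n = 2 per group, edgeR adjusted p = 0.00477, but 0.118 without HL replicate 2 at 72 h) and that of NSP4 0.97 (SE 0.22, edgeR adjusted p = 0.00126). NSP4 had 7.48 and 8.86 CPM in HL at 72 h and 3.57 and 4.13 CPM in HL at 24 h, and its call held in 11 of 11 alternatives. AT1G56680, a chitinase family gene, rose within HL by 1.1 (SE 0.41, edgeR adjusted p = 0.0342), with 1.17 and 2.16 CPM at 72 h and 0.945 and 0.531 CPM at 24 h, and the adjusted p was 0.242 without HL replicate 2 at 24 h and 0.481 without HL replicate 2 at 72 h. FBA5, the last of the 4 that rose within HL, had a log2 fold change of 0.54 (SE 0.15, edgeR adjusted p = 0.00574, and 0.0972 without HL replicate 1 at 24 h). CYP705A1 rose within GL by 0.69 (SE 0.23, edgeR adjusted p = 0.0442), a call lost with DESeq2 (0.131), with the replicate number as a block (0.0514) and without any 1 of the 4 libraries (0.0513 to 0.281).

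Of the root hair genes, EXPA7 and LRX2 were among the falls in both lights, while ADF11, RHS8, RHS16 and LRL3 were called in neither. ACA9 was called in GL but not in HL. The calls of EXPA7 were lost when some single libraries were left out. Of the falls within GL that passed the test, the 3 largest were in AT5G04970, LRX2 and ACA9, by 1.08, 0.90 and 0.77 on the log2 scale (SE 0.29, 0.25 and 0.24, n = 2 per group, edgeR adjusted p = 0.0144, 0.0182 and 0.0297). LRX2 had 6.3 and 5.58 CPM in GL at 72 h and 11.4 and 9.86 CPM in GL at 24 h. The calls of LRX2 and ACA9 were lost without any 1 of the 4 libraries (adjusted p from 0.0516 to 0.133 and from 0.0558 to 0.195), that of ACA9 also with DESeq2 (0.0565), and that of AT5G04970 without GL replicate 1 at 24 h (0.118) or either GL replicate at 72 h (0.0847 and 0.102). Of the falls within HL that passed the test, the largest fitted were in AT1G14220, AT1G74830 and AT4G27400, an RNase T2 gene, a putative myosin-binding protein gene and a late embryogenesis abundant-like gene. AT1G14220 had 0 and 0 counts in HL at 72 h and 8 and 6 counts in HL at 24 h, so it was at least 2.83-fold lower when the floor is set at 3 counts over the 2 libraries. AT1G74830 had 0 and 1 counts at 72 h and 7 and 8 at 24 h, a ratio of 0.11 (95% exact interval 0.00261 to 0.714, counting error only), and its call was lost without HL replicate 1 at 72 h (adjusted p = 0.093) and with DESeq2 (0.068). AT4G27400 had 6 and 3 counts at 72 h and 24 and 33 at 24 h, and its adjusted p of 0.0198 was 0.0906 without HL replicate 2 at 24 h and 0.196 without HL replicate 2 at 72 h.

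**Figure D4:**
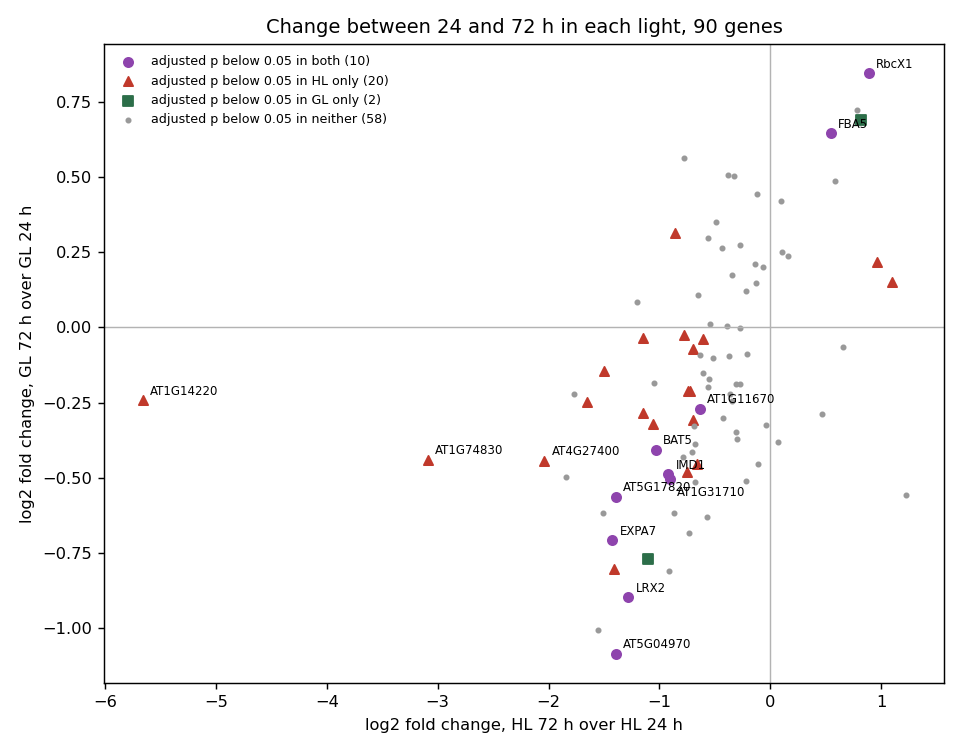
Fitted log2 fold change of 72 h over 24 h in HL (horizontal) and in GL (vertical), 1 point per gene, with colour and shape showing in which light the adjusted p was below 0.05. Called in both lights were 10 genes, with 8 of them falls. AT1G14220, at the far left, has no counts in HL at 72 h, so its position is not a measured size.

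After 14 h back in growth light, the log2 ratio of recovery to GL at 72 h had a median of -0.33 over the members and was below 0 in 78 of 90. Recovery was called higher than HL at 72 h in 81 members (18.6% of all tested genes), and 1 member was called higher (5.03%) and 10 lower (6.57%) than GL at 72 h, all fixed in large part by the rule. The 1 higher was BAT5, a call lost without recovery replicate 1 or either GL replicate at 72 h. The 10 became 2 without recovery replicate 1 or GL replicate 1, 3 without GL replicate 2, 30 with no filter on low counts and 44 when only the 4 libraries were fitted. The highest recovery ratios were those of AT1G56680 (0.62), RbcX1 (0.40) and DOT1 (0.36), and the lowest were those of AT4G27400 (-0.67), SULTR1;1 (-0.67) and AT4G25070 (-0.66). Without the added 1 CPM the fitted log2 fold changes were further from 0. They were -1.20 in AT4G27400, -1.49 in SULTR1;1 and -0.88 in AT4G25070, and AT3G20395 was at -1.19. AT1G56680 had 6.86 and 8.07 CPM in recovery, above the 4.24 and 4.77 CPM in GL at 72 h. Tic62, 1 of the 10 called lower, had 207 and 215 CPM in recovery, below the 307 and 300 CPM in GL at 72 h. Its log2 fold change was -0.59 (SE 0.08, n = 2 libraries per group, edgeR adjusted p = 4.29e-05) and ran from -0.638 to -0.541 over the alternatives. A further 19 genes met the early and late conditions but had a recovery ratio below -0.7, and no gene had one above 0.7.

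Markers of root tissues and of other cell types were summed in every library with the members left out. At 72 h the 20 other root hair markers summed to 137 and 157 CPM in HL and 303 and 288 CPM in GL, the 19 endodermis markers to 324 and 342 CPM in HL and 452 and 448 CPM in GL, and the 20 remaining root markers to 1608 and 1670 CPM in HL and 3111 and 3041 CPM in GL. The 30 xylem and secondary wall markers summed to 569 and 627 CPM in HL and 591 and 584 CPM in GL, which overlapped. At 24 h, however, that list was at 659 and 659 CPM in HL and 601 and 589 CPM in GL, and at 48 h at 629 and 616 CPM in HL and 583 and 588 CPM in GL, higher in HL without overlap. The phloem markers summed to 1380 and 1405 CPM in HL and 1746 and 1724 CPM in GL at 72 h, lower in HL without overlap, and the stomatal lineage markers to 1037 and 1101 CPM in HL and 1018 and 1002 CPM in GL, higher in HL without overlap. At 72 h the 90 members summed to 741 and 764 CPM in HL, 2068 and 2001 CPM in GL and 1646 and 1899 CPM in recovery. The antenna genes of photosystems, at 14677 and 14983 CPM in HL and 48465 and 52648 CPM in GL at 72 h, were already apart at 6 h, with 22669 and 24378 CPM in HL and 72420 and 73318 CPM in GL. The root hair, endodermis and remaining root lists overlapped at 6 h but were already lower in HL without overlap at 12 h. At 12 h the root hair markers had 217 and 246 CPM in HL and 328 and 262 CPM in GL. The endodermis markers had 372 and 373 CPM in HL and 437 and 391 CPM in GL, and the remaining root markers 3105 and 3439 CPM in HL and 5394 and 4491 CPM in GL. The root hair and endodermis lists were also lower in HL without overlap at 0.5 h. This early course was not particular to root lists. The phloem list was lower in HL without overlap at 0.5 h and overlapped at 6 h. At 12 h it had 1657 and 1575 CPM in HL and 1968 and 2055 CPM in GL. The trichome list was lower in HL without overlap at 0.5, 6 and 48 h and higher at 24 h, and it overlapped at 12 and 72 h. Of the 20 remaining root markers, 12 fell and 3 rose at 72 h, and TTG2, GLP4 and AIL6 were those that rose. The meristem regulators PLT1 and PLT2, named after their values were seen, had log2 fold changes of -0.02 and 0.02 at 72 h (adjusted p = 0.964 and 0.972). The part of these marker changes in the levels of the members was not tested.

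**Figure D5:**
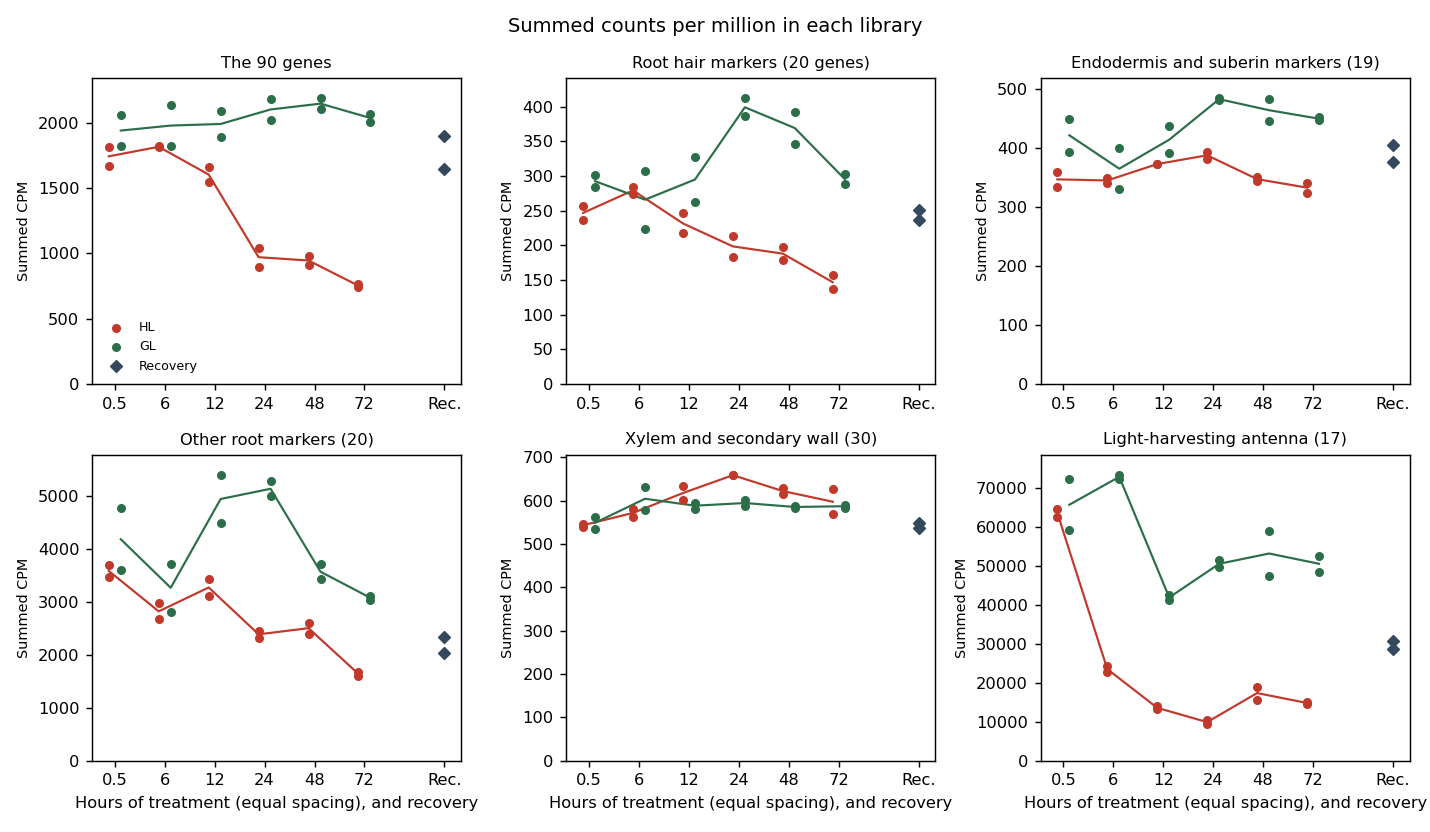
Summed CPM in each library (HL red, GL green, recovery diamonds, lines through group means) for the 90 genes and for 5 lists of other genes. The 90 genes summed to 897 and 1044 CPM in HL and 2177 and 2023 CPM in GL at 24 h. The root hair, endodermis and other root lists were lower in HL at 72 h and already at 12 h, and overlapped at 6 h. The xylem list overlapped at 72 h but was higher in HL at 24 and 48 h, and the antenna list was apart from 6 h on.

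Promoters of the members differed in plain letter content from those of all tested genes, as a description. The letters TGGGCC were in 3.33% of member promoters and 15.9% of all, TGGGCT in 5.56% and 13.8%, and the G-box CACGTG in 2.22% and 7.36%. The W-box letters TTGACC were in 21.1% of member promoters and 12.2% of all, and TATAAA in 56.7% and 46.4%. Each motif was searched on both strands of the same 250 bases, CACGTG and the ACGT core (55.6% and 44.7%) overlap each other, and the windows of genes close together can share bases.

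The limits of the rule cut through a continuous range. AT3G32980 was just inside the late limit at 24 h with a ratio of -0.8001, and FRU, a regulator of iron uptake, was just outside with -0.7995. FBA5 was inside the early limit at 12 h with -0.4910 and ABCB14 outside with -0.5001. At 6 h FBA5 was inside with 0.47 and AGP13, an arabinogalactan peptide gene, outside with 0.53. For recovery AT4G27400 was inside with -0.67 and AT5G07322 outside with -0.72. The single condition most often missed was the lower limit at 12 h, which alone kept out 77 genes. With 0.5 CPM added in place of 1 the rule found 119 genes, 66 of them among the 90, and with 2 CPM it found 62, 42 of them among the 90. Leaving out 1 library at a time gave 68 to 106 genes, and 12 of the 90 stayed members in all 26 of these settings, among them RHS8, XTH21, TIP4;1, UGT71C1 and AGP14.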

How the data were processed

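RNA from pooled whole seedlings was made into single-end libraries with a stranded mRNA kit, per the labels' protocols. TopHat2 2.1.1, HTSeq 0.6.0, edgeR and build TAIR10 are named in the submitters' processing notes, and the settings used with them, strand option included, were not given in the sources used here. The deposited values are raw read counts per gene, and all genes in the 26 files were used.

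CPM was computed by library total for levels, sums and the rule. Fold changes came from edgeR 4.0.16 (R 4.3.3, limma 3.58.1), with TMM scaling, filterByExpr at a minimum count of 10, 1 quasi-likelihood fit over all 13 groups and Benjamini-Hochberg adjustment over 21449 genes. A standard error is the fold change divided by the root of its F statistic. The fit was tested on simulated data. Names, exon lengths and promoters came from RefSeq's TAIR10.1 annotation, which matched 32835 of 33602 IDs.

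The members and lists were chosen with earlier results of these data known. Of the members, 44 were named by rule: the 10 lowest mean late ratios among those of at least 5 CPM in GL, the 5 highest levels, the 3 largest rises and falls called in each time comparison, list members, those nearest each limit, the 3 highest and 3 lowest recovery ratios, and transcription factors. From each list with a member, the 3 genes with the largest change at 72 h were also named. The results of 1 named member are not reported here. Others are marked as chosen after their values were seen. Alternatives were RLE and upper-quartile scaling, no filter or 1 CPM in 2 libraries, DESeq2 1.42.0, a block for the replicate number, a fit of the compared groups alone, other pseudocounts, and each library left out. Libraries of a group correlated at 0.991 to 0.997 on log CPM, and depth limits genes of few counts most.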

Additional observations from a re-analysis of the deposited data

How the results depend on the processing

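The counts of members called at 0.5, 6 and 12 h, in recovery and at 72 h against 24 h moved with the processing, and genes of few counts carry the limits. No change of a named gene that passed the test as reported changed sign in an alternative, and none passed where the sign had changed. AT3G20395, for GL at 72 h against 24 h, was not called as reported but was called in an alternative. Its log2 fold change ran from -1.157 to 0.681 with 1 library left out, so its sign did change. The calls of 87 to 90 members at 24 and 48 h and 88 to 90 at 72 h held with 1 library left out.

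The fitted log2 fold change of 26 of 215 results of named genes changed sign in an alternative, and 0 of them passed the test as reported or where the sign changed. With 1 library left out they ran, for recovery against GL at 72 h, in EXPA7 -0.225 to 0.257, RHS8 -0.183 to 0.274, UCC1 -0.818 to 0.018, ACA9 -0.405 to 0.126, AT3G50640 -0.501 to 0.005, FBA5 -0.292 to 0.171 and RHS16 -0.222 to 0.067. For GL at 72 h against 24 h they ran in TIP4;1 -0.31 to 0.165, AT2G39410 -0.079 to 0.681, AT3G09925 -0.221 to 0.044, AT3G20395 -1.157 to 0.681, AT4G27400 -0.879 to 0.186, NAC074 -0.071 to 0.876, AT4G30170 -0.098 to 0.048, HB-3 -0.296 to 0.716, TBL21 -0.371 to 0.325, PER64 -0.011 to 0.215, AT5G54370 -0.665 to 0.339 and AGP14 -0.268 to 0.242. For HL at 72 h against 24 h they ran in UGT71C1 -0.32 to 0.312, AT2G39410 -0.202 to 0.468, Tic62 -0.148 to 0.011, AT3G50640 -0.419 to 0.222, NAC074 -0.036 to 1.571, HB-3 -0.464 to 0.08 and LRL3 -0.634 to 0.22. The 1 CPM filter gave 0.01 for EXPA7 in recovery, and upper-quartile scaling gave 0.03 for UGT71C1 and 0.01 for Tic62 in HL at 72 h against 24 h.

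With no filter on low counts, members called were 2 higher and 10 lower at 0.5 h, 4 and 8 at 6 h, 3 and 30 for recovery against GL at 72 h, and 5 and 16 for GL at 72 h against GL at 24 h. With only the compared groups fitted they were 0 lower at 0.5 h, 3 lower at 6 h, 4 higher and 44 lower for recovery against GL at 72 h, and 5 and 20 for GL at 72 h against 24 h, while over all genes 883 were lower at 0.5 h and 1921 higher and 2549 lower for recovery. Upper-quartile scaling and the 1 CPM filter each gave 2 members lower at 0.5 h. DESeq2 gave 12 members lower at 12 h and 1148 genes higher for GL at 72 h against 24 h. The cause of these shifts was not tested.

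With 1 library left out, members called ran from 0 to 1 higher and 0 to 12 lower at 0.5 h, 1 to 5 and 2 to 10 at 6 h, 0 to 1 and 7 to 22 at 12 h, 0 to 1 and 2 to 9 for recovery against GL at 72 h, 2 to 5 and 2 to 4 for GL at 72 h against 24 h, and 2 to 4 and 11 to 33 for HL at 72 h against 24 h. Over all genes the lower calls at 0.5 h ran from 1108 to 1635, those for recovery against GL from 412 to 516 higher and 547 to 860 lower, and those for GL at 72 h against 24 h from 793 to 1008 higher and 767 to 1369 lower. The rule itself found 68 to 106 genes.

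The replicate number as a block gave 2 members higher and 9 lower for GL at 72 h against 24 h, and 4 and 26 for HL. Among named genes it changed the call of CYP705A1 in GL (adjusted p = 0.0514) and no other. Deviations of same-numbered libraries in HL and GL correlated at -0.146, -0.214 and -0.194 at 0.5, 6 and 12 h and at -0.032, 0.018 and -0.025 at 24, 48 and 72 h, and those of the other group pairs from -0.064 to 0.095. The labels tie the numbers to no shared source, and no correlation was above 0.1. A crossed pairing, added after seeing the data, gave 1 member lower at 0.5 h, 1 higher and 5 lower at 6 h and 19 lower at 12 h.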
